A study of Mus musculus with 6 samples.

Results

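Rab25, Myo5b, Ap1m2, Crb3, Pard6b, Llgl2 and Lsr are 7 genes of epithelial polarity and membrane trafficking, and they are described here in sorted cells of the mouse genital tubercle. They were chosen by name, and every probe set annotated to them was used, which gave 13 of the 34945 probe sets with a single gene name and 7 of 18193 genes. The arrays compared reporter-positive with reporter-negative cells in the tubercle, the outgrowth that forms penis or clitoris. Both groups came from embryos at 12.5 days post coitum (Theiler stage TS20) on a mixed background, carrying the alleles Shhtm1(EGFP/cre)Cjt and Gt(ROSA)26Sortm3(CAG-EYFP)Hze. In these embryos Cre recombinase is made from the Shh locus and switches on a yellow fluorescent protein in cells that express Shh and in their descendants, so the reporter marks a history of Shh expression. The YFP-positive group is labelled as urethral epithelium, and the YFP-negative group holds all other sorted cells of the tubercle, whatever their type. Each group had 3 arrays, made from pools of 3, 5 and 2 littermates of both sexes for replicates 1, 2 and 3. Nothing in the labels states how far the pools of the 2 fractions were separate, so the p-values measure the spread between these arrays.

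An epithelial cell keeps an apical surface, which faces a lumen or the outside, apart from its basolateral surface. Crumbs proteins and the Par complex mark the apical side, lethal giant larvae proteins act on the basolateral side and oppose them, and each side holds the other in check. Recycling endosomes with Rab11-type GTPases and myosin V motors carry cargo to the apical membrane, and the clathrin adaptor AP-1B sorts cargo to the basolateral one. Ap1m2, Llgl2 and Lsr are thus genes of the basolateral side or of cell contacts rather than of apical trafficking. The urethral plate is an epithelium of endodermal origin, in which these components would be in use, whereas the mesenchyme around it has no such surfaces. The YFP-negative group is defined only by the lack of the reporter. It is not that mesenchyme alone and may hold other epithelial cells.

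Positive replicate 3 stood apart from the other arrays. Its median signal over named probe sets was 0.34 in deposited units, against 2.15 to 8.84 in the other 5, while hybridization controls averaged between 1443 and 1885 on all 6. Its Spearman correlation with the others across named probe sets was at most 0.345, and the other 5 correlated at 0.716 to 0.862 among themselves. Results are therefore given for the 6 arrays and beside them for the 5 arrays without it. Shh, whose locus drives the reporter, was higher in YFP-positive cells by 5.03 on the normalized log2 scale, log2(signal + 16) after quantile normalization (SE 0.47). Its adjusted p was 0.0122 by limma, with the method of Benjamini and Hochberg, and in the 5 arrays it was higher by 4.96. That scale understates the changes of dim genes, and the 7 genes were dim.

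None of the 7 genes passed an adjusted p of 0.05 in the 6 arrays, and Rab25 was the only one of them to pass in the 5 arrays. All 7 had a positive log2 difference (YFP-positive minus YFP-negative) in both comparisons, with medians of 0.58 and 0.56. On the values as deposited 4 of 7 were positive in the 6 arrays, those of Lsr, Crb3 and Myo5b were negative, and the median over all genes was -0.48. All 7 lay above the all-gene median under every scaling tried. Over all genes 47.2% had a positive difference in the 6 arrays and 49.6% in the 5, with medians of -0.03 and 0.0. The share of all genes called higher was 0.0142% of 14071 in the 6 arrays and 0.552% of 13960 in the 5 (limma). At an unadjusted p under 0.05, Rab25 and Llgl2 were higher in the 6 arrays, where 2.3% of all genes were, and Rab25, Ap1m2, Llgl2 and Pard6b in the 5, where 5.41% were. Every positive array lay above every negative array for 2 of the 7 genes in the 6 arrays, against 6.29% of all genes, and for 4 in the 5 (Rab25, Ap1m2, Llgl2 and Myo5b), against 13.2%. All 7 passed the filter on low signal. A fraction holds a mixture of cells, and fewer cells of a type cannot be told apart from less RNA per cell.

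**Figure D1:**
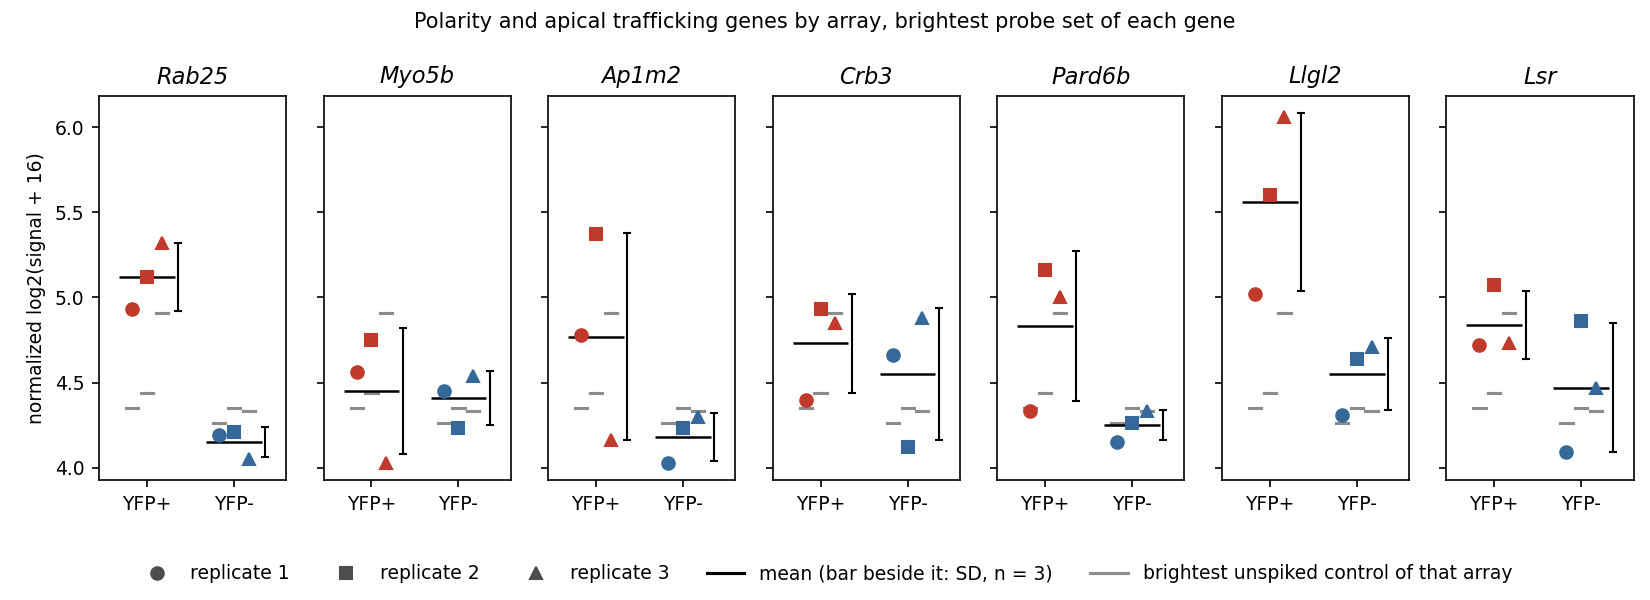
Normalized log2(signal + 16) of the brightest probe set of each gene on each array, YFP-positive at left (red) and YFP-negative at right (blue). Black lines are means with SD bars (n = 3 each), and grey ticks are the brightest unspiked control of that array on the same scale. The YFP-positive and YFP-negative points are separate for Rab25 and Llgl2 and overlap for the other 5 genes.

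Rab25, a GTPase of the Rab11 group that works at apical recycling endosomes of epithelial cells, differed most clearly. Its deposited signal was 14.8, 12.2 and 1.37 in positive replicates 1, 2 and 3, and 4.0, 4.77 and 0.22 in negative replicates 1, 2 and 3. The brightest unspiked control, taken as background, read 4.47, 4.41 and 1.12 on those positive arrays and 5.36, 8.28 and 2.03 on the negative ones. Rab25 was therefore above background on every positive array and on none of the negative arrays, the only 1 of the 13 probe sets with that pattern. The share of all named probe sets with that pattern was not counted, so how rare it is cannot be judged. By rank it stood at the percentiles 73.1, 77.3 and 82.5 of named probe sets on the positive arrays, against 33.7, 34.8 and 16.9 on the negative arrays. After normalization it averaged 5.12 ± 0.20 in YFP-positive and 4.15 ± 0.09 in YFP-negative arrays (SD, n = 3 each), and the groups did not overlap. The difference was 0.97 (SE 0.25, 95% interval 0.42 to 1.52, adjusted p = 0.628, limma) in the 6 arrays. Because the negative arrays give only an upper bound, the means of these arrays differed by at least 1.75-fold on this scale (at least 1.64-fold without positive replicate 3). That bound takes no account of the spread between arrays, and the 95% interval above begins at a log2 difference of 0.42. Rab25 was higher in the 5 arrays, by 0.98 (SE 0.20, limma adjusted p = 0.0439). The call was lost when negative replicate 1, 2 or 3 was also left out, with an adjusted p of 0.132, 0.162 and 0.102 (limma). With 1 YFP-positive array left, which is then assumed to vary like the negative arrays, the adjusted p was 0.422 without positive replicate 2 and 0.036 without positive replicate 1 (limma). Over 24 alternatives it ran from 0.00775 to 1 and passed in 3.

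Ap1m2 encodes the medium subunit that makes AP-1 into the epithelial form AP-1B, which sorts proteins to the basolateral membrane. Ap1m2 has 1 probe set, whose deposited signal was 11.7, 16.6 and 0.10 in positive replicates 1, 2 and 3, against 0.64, 5.19 and 1.81 in the negative replicates. It was high in positive replicates 1 and 2 and below background on positive replicate 3 and on all negative arrays. The normalized mean was 4.77 ± 0.61 in YFP-positive and 4.18 ± 0.14 in YFP-negative arrays (SD, n = 3 each). The difference was 0.59 (SE 0.30, adjusted p = 0.725, limma) in the 6 arrays. In the 5 arrays it was 0.99 (SE 0.24, 95% interval 0.49 to 1.5, adjusted p = 0.0921, limma), so Ap1m2 did not pass there either. With array weights, which gave positive replicate 3 a weight of 0.1, both Ap1m2 and Rab25 passed, each at a difference of 0.83 (adjusted p = 0.00328 and 0.00775, limma). That fit called 1.81% of all genes higher.

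Myo5b, the myosin motor that carries Rab11-type recycling vesicles along actin, had 3 probe sets and showed no difference that passed. The brightest read 7.82, 7.39 and 0.05 in positive replicates 1, 2 and 3, against 9.78, 5.28 and 3.17 in the negative replicates. These values overlap, although in the 5 arrays the normalized groups were separate. Its normalized difference was 0.04 (SE 0.23, 95% interval -0.48 to 0.56, adjusted p = 0.955, limma) in the 6 arrays and 0.28 (SE 0.21, 95% interval -0.17 to 0.73, adjusted p = 0.744, limma) in the 5. The other probe sets differed by 0.11 and 0.47 in the 6 arrays and by 0.09 and 0.20 in the 5. The sign of the gene-level difference turned in 3 of 24 alternatives, in most of which the brightest set was chosen anew. Some of those differences thus came from another probe set.

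Among the polarity proteins, Llgl2 had the highest difference of the 7 genes in the 6 arrays. Llgl2 is a lethal giant larvae homologue of the basolateral cortex. It read 16.9, 20.8 and 1.89 in positive replicates 1, 2 and 3, against 6.58, 18.5 and 4.10 in the negative replicates, and was above background on all 6 arrays. In deposited units negative replicate 2 exceeded positive replicate 1, and the groups were separate only after normalization. By rank it stood at the percentiles 75.2, 85.0 and 90.4 on the positive arrays and 46.1, 64.5 and 67.5 on the negative arrays. Normalized means were 5.56 ± 0.52 in YFP-positive and 4.55 ± 0.21 in YFP-negative arrays (SD, n = 3 each). The difference was 1.01 (SE 0.36, 95% interval 0.20 to 1.82, adjusted p = 0.725, limma), and 0.83 (SE 0.28, adjusted p = 0.314, limma) in the 5 arrays. Llgl2 passed in none of 24 alternatives, where its difference was positive throughout (0.16 to 1.94).

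Pard6b, a scaffold of the Par complex that binds atypical protein kinase C, had 2 probe sets. The brighter, used for the gene, has the suffix _s, which marks probes that can match more than 1 transcript. The brighter read 4.22, 12.9 and 1.17 in positive replicates 1, 2 and 3, against 3.09, 6.05 and 2.03 in the negative replicates, where it never exceeded background. The other read 7.38, 8.55 and 0.32 in positive replicates 1, 2 and 3, against 0.18, 3.96 and 2.62 in the negative replicates. Positive replicate 2 was the highest in both sets. The brighter set averaged 4.83 ± 0.44 in YFP-positive and 4.25 ± 0.09 in YFP-negative arrays (SD, n = 3 each), a difference of 0.58 (SE 0.27, adjusted p = 0.725, limma). In the 5 arrays it differed by 0.56 (SE 0.25, adjusted p = 0.519, limma). The second set differed by 0.36 in the 6 arrays and 0.55 in the 5, and neither passed.

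Crb3 is the Crumbs protein of most epithelia, a short transmembrane protein of the apical membrane. Its 3 probe sets did not give the same picture. The brightest read 5.17, 9.63 and 1.09 in positive replicates 1, 2 and 3, against 15.5, 2.79 and 5.03 in the negative replicates, so negative replicate 1 was the highest of all. It differed by 0.17 (SE 0.29, 95% interval -0.48 to 0.83, adjusted p = 0.852, limma) in the 6 arrays and 0.13 (SE 0.28, adjusted p = 0.936, limma) in the 5. A second set, with the suffix _s, read 9.03, 13.3 and 0.39 in positive replicates 1, 2 and 3, against 0.85, 3.73 and 1.55 in the negative replicates. It was above background in positive replicates 1 and 2 and on no negative array. Its difference was 0.56 (SE 0.26) in the 6 arrays, with every positive array above every negative one, and 0.84 (SE 0.25) in the 5, with adjusted p of 0.783 and 0.601 over all named probe sets (limma). That suffix marks probes that can match more than 1 transcript. The last set differed by 0.44 and 0.27, without passing. The gene-level result for Crb3 thus depends on the probe set. Its sign turned in 4 of 24 alternatives, in most of which the brightest set was chosen anew.

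Lsr, or angulin-1, is a membrane protein that recruits tricellulin to the contacts where 3 cells meet. The brighter of its probe sets gave 10.6, 11.5 and 1.03 in positive replicates 1, 2 and 3, against 1.92, 28.2 and 2.87 in the negative replicates. Negative replicate 2 was the highest array. The normalized mean was 4.84 ± 0.20 in YFP-positive and 4.47 ± 0.38 in YFP-negative arrays (SD, n = 3 each), a difference of 0.37 (SE 0.29, 95% interval -0.27 to 1.0, adjusted p = 0.725, limma). The difference was 0.47 (SE 0.27, adjusted p = 0.649, limma) in the 5 arrays. The dimmer set was above background only on positive replicate 1, at 4.51, and differed by 0.10 and 0.19 in the 6 and 5 arrays. The brighter set was above background on 2 positive and 2 negative arrays, and on the others its signal was only a bound.

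Taken probe set by probe set, all 13 had a positive difference in the 6 and in the 5 arrays, against 49.6% and 48.5% of all named probe sets. The 13 share genes and arrays and are not independent. Every positive array was above every negative array for 3 of them in the 6 arrays and 6 in the 5, against 5.77% and 11.5% of all named probe sets. None passed when all 34945 were tested on their own. The adjusted p ran from 0.783 to 0.969 in the 6 arrays and from 0.348 to 0.952 in the 5, with 2 and 5 sets higher at an unadjusted p under 0.05, against 2.01% and 4.14% of all named probe sets (limma). Of the 13 sets 10, 10 and 5 were above background in positive replicates 1, 2 and 3, and 5, 2 and 5 in negative replicates 1, 2 and 3, so positive replicate 3 was level with negative replicates 1 and 3. Over all named probe sets the shares above background were 51.3%, 44.0% and 24.6% in the positive replicates, and 59.3%, 51.6% and 51.7% in the negative ones.

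**Figure D2:**
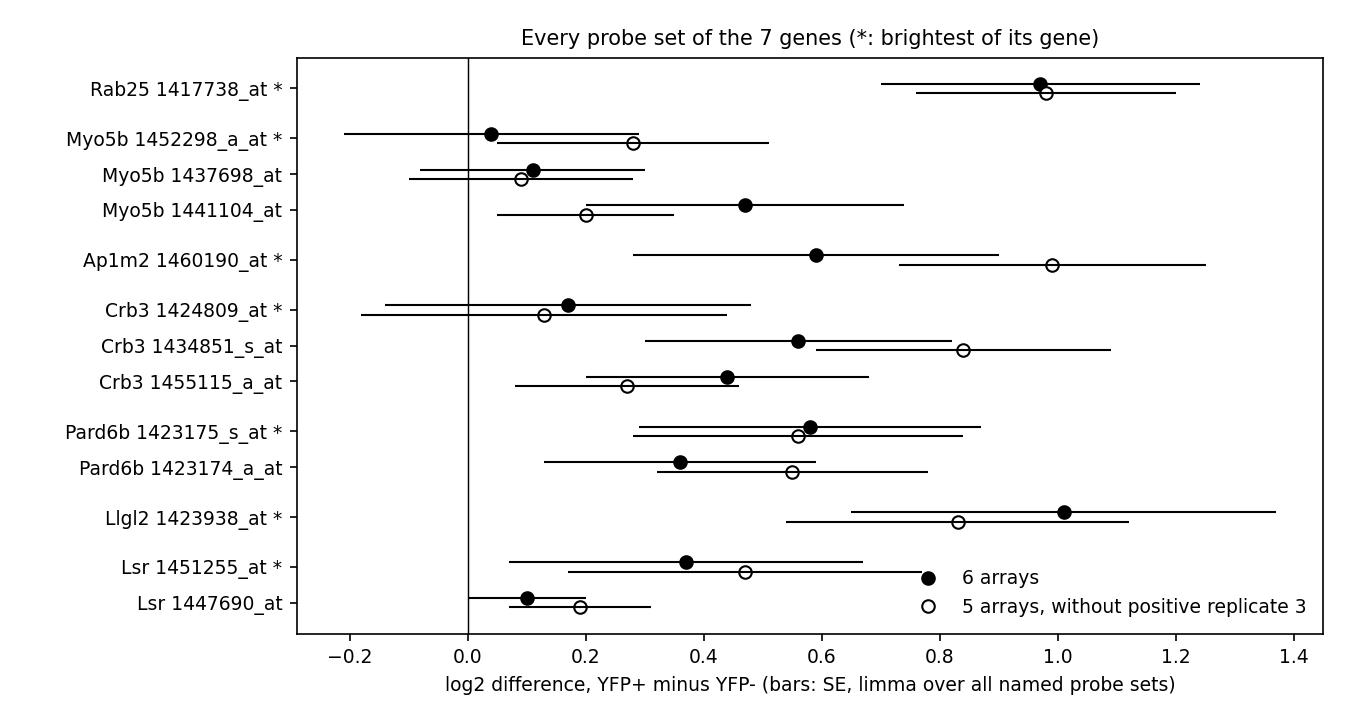
Log2 difference, YFP-positive minus YFP-negative, of each of the 13 probe sets with its SE, in the 6 arrays (filled) and in the 5 arrays without positive replicate 3 (open). Every point lies above 0 on this quantile-normalized scale, Rab25 near 1.0 in both comparisons, and the sets of Crb3 spread from 0.13 to 0.84.

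The sequence before the start site was compared because the 7 differences had the same sign on the normalized scale. RefSeq windows on GRCm38.p6 were at hand for 5 of the 7 genes, Rab25, Ap1m2, Lsr, Crb3 and Pard6b, and the 250 bases before the start are printed 5′ to 3′ on the strand of the gene. Capitals mark CAGGTG or its reverse complement CACCTG, the E-box form that Snail and Zeb repressors bind in epithelial promoters such as that of Cdh1. In Rab25 capitals also mark AACCTGTT, a match to AACCNGTT, the form bound by Grainyhead-like factors of epithelia. The motifs were picked after the sequences had been seen, so their shares below describe these windows and are not a test.
Rab25, chr3:88548280-88548529, minus strand: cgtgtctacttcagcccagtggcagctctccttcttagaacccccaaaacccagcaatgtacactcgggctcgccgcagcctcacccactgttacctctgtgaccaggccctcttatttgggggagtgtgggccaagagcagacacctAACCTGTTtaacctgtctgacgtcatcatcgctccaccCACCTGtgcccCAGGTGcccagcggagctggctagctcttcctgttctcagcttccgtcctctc
Ap1m2, chr9:21312334-21312583, minus strand: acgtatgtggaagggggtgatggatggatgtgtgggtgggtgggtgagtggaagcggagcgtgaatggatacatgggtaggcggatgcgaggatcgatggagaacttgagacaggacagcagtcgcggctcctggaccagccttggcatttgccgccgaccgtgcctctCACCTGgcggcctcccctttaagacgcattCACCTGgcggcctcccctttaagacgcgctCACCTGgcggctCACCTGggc
Lsr, chr7:30973470-30973719, minus strand: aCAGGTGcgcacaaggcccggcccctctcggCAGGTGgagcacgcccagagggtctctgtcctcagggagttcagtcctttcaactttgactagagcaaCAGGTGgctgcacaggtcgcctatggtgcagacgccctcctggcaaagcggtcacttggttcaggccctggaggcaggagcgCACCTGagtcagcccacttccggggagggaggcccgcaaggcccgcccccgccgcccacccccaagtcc
Crb3, chr17:57061951-57062200, plus strand: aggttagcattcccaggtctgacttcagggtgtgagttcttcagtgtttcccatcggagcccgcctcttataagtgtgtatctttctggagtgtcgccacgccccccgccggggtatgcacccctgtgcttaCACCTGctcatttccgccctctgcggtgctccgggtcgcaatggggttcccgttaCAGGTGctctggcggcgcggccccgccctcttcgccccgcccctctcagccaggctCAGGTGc
Pard6b, chr2:168080754-168081003, plus strand: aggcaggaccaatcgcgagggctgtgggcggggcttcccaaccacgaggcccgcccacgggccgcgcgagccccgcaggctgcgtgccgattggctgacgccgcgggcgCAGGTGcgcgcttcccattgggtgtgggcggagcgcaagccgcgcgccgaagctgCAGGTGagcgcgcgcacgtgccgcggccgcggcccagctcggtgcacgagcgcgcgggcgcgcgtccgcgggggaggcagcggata

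All 5 windows held CAGGTG on either strand, with 2 copies in Rab25 and Pard6b, 3 in Crb3 and 4 in Ap1m2 and Lsr. Of 27025 gene windows of the same length 17.1% held it at least once and 2.06% held 2 or more. The share was 16.5% for 17491 protein-coding genes and 18.9% for 8056 windows whose GC share lay within the 58.4% to 77.6% of these 5. In Ap1m2 the copies lay close together on a stretch that repeats itself. Their first bases were at positions 81, 51, 21 and 9, counted back from the 3′ end of the printed window. The last 16 bases of that window lie inside the gene as RefSeq bounds it, so the copy nearest the start is inside the annotated gene and the next one reaches its edge. The windows of the other 4 genes end where the gene begins, and for Crb3 the first of 2 windows was used. In Rab25 the pair lay with first bases at 64 and 53 before the start. AACCNGTT was found in Rab25 alone of the 5 and in 1.7% of all windows, and GGGCGG, a GC box that overlaps neither motif, in 3 of the 5 and in 32.9%. Of the paralogues 2 of 10 with a window held CAGGTG, of the epithelial markers 5 of 7 and of the mesenchymal markers 0 of 7. It was in 4 of 18 windows of the polarity complexes, 3 of 19 of the trafficking list, 2 of 6 of the AP-1 subunits and 2 of 4 of the tricellular list. A match describes letters in the window and does not show that a factor bound there.

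Of the paralogues of the 7 genes, some of which, such as Rab11a, Rab11b and Ap1m1, are used in most cell types, none of the 10 that were tested passed in either comparison. Of these 8 had a positive and 2 a negative difference in the 6 arrays, with a median of 0.33, and the median was 0.27 in the 5. Rab11a and Rab11b, the widely used GTPases next to Rab25, differed by 0.29 (SE 0.42) and 0.36 (SE 0.46) in the 6 arrays and by 0.52 and 0.25 in the 5. Ap1m1, the medium subunit of the ubiquitous AP-1A, measured 5.73 ± 0.71 in YFP-positive and 6.35 ± 0.45 in YFP-negative arrays (SD, n = 3 each). The difference was -0.62 (SE 0.47, adjusted p = 0.725, limma), and -0.29 in the 5 arrays, while Ap1m2 had a positive difference. These Ap1m1 values come from the brighter of 2 probe sets, which has the suffix _s. The other set had normalized values of 5.67, 5.39 and 5.35 in positive replicates 1, 2 and 3. In negative replicates 1, 2 and 3 it had 5.40, 5.32 and 5.82, so the negative difference of Ap1m1 rests mainly on the brighter set. Pard6a and Pard6g, the other Par6 scaffolds, differed by 0.52 (SE 0.24) and 0.29 (SE 0.35) in the 6 arrays and by 0.46 and 0.33 in the 5. Llgl1 differed by 0.68 (SE 0.43) and 0.55. Every positive array lay above every negative array for Pard6a in the 6 arrays, and for Pard6a and Myo5c in the 5. Myo5a differed by -0.14 (SE 0.26) and -0.08, and Crb1 by 0.18 (SE 0.20) and 0.0. Ildr1 and Ildr2, the other angulins, differed by 0.54 (SE 0.34) and 0.59 (SE 0.48) in the 6 arrays, and both values rested on positive replicate 3. Without it Ildr2 differed by 0.14 from another probe set, and by -0.11 from the same one, and Ildr1 by 0.07 with no filter. Myo5c was under the filter on low signal in the 6 arrays and Ildr1 in the 5, and Crb2 is not analysed here. Intervals of genes and paralogues overlapped in every family, and the differences between them were not tested. As deposited or with median centring of each array, the differences of Rab11a, Rab11b, Ildr2, Crb1, Llgl1 and Pard6g turned negative.

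**Figure D3:**
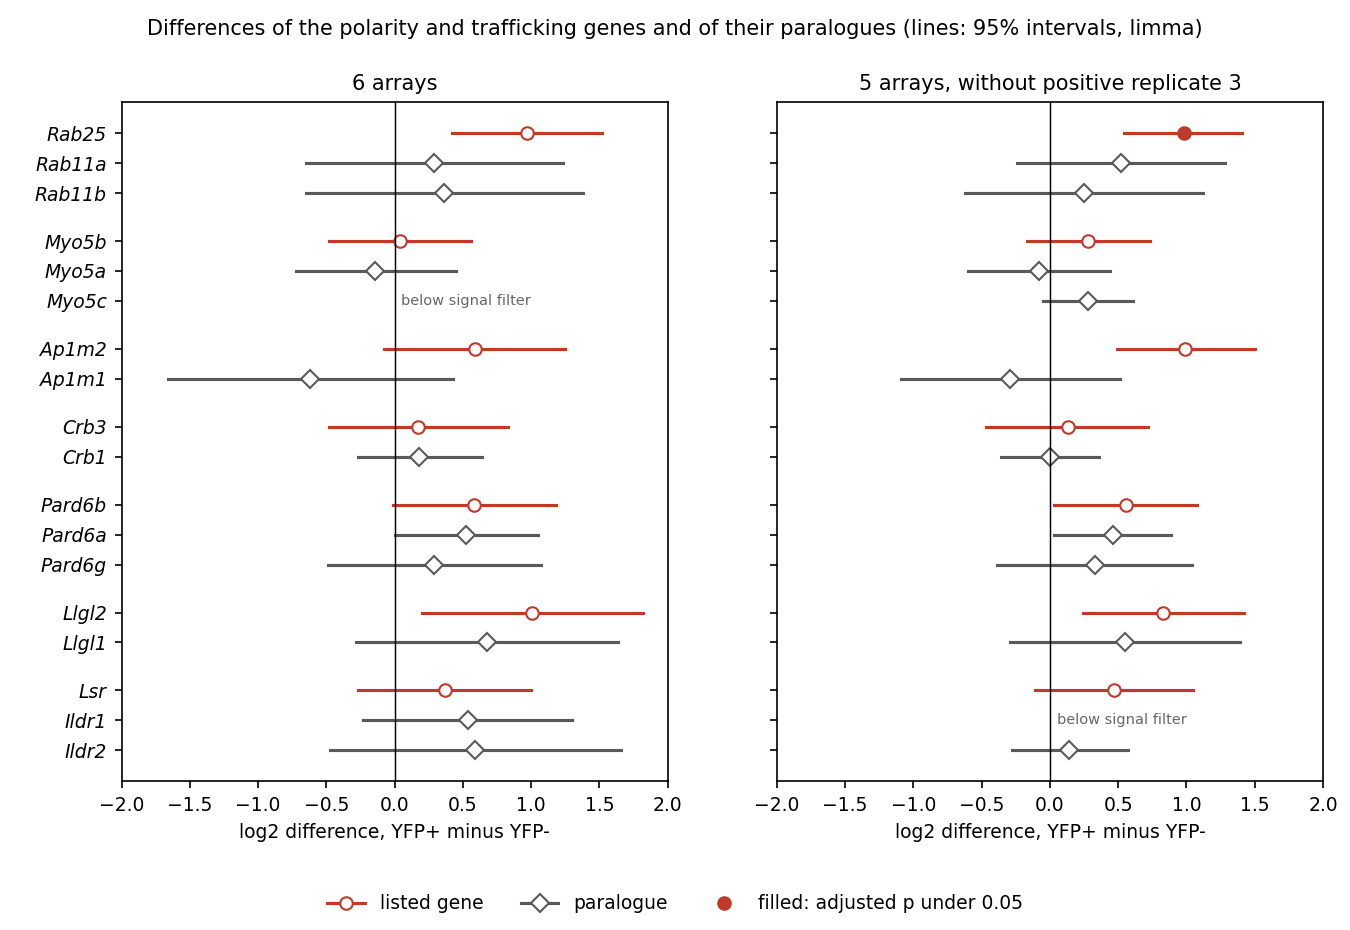
Log2 difference, YFP-positive minus YFP-negative, of the 7 genes (circles) and their paralogues (diamonds), with 95% intervals from limma, for the 6 arrays at left and for the 5 arrays without positive replicate 3 at right. Rab25 in the 5 arrays is the only filled symbol, at 0.98, and the intervals of each gene and its paralogues overlap.

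Of 57 further genes of these pathways, 53 were tested and none passed in the 6 arrays, while Ezr and Mal2 were higher in the 5 (limma, 2 of 53 against 0.602% of all genes called in either direction). At an unadjusted p under 0.05, 7 were higher and 1 lower in the 6 arrays, where 2.3% of all genes were higher and 2.88% lower, and the median difference was 0.18. In the 5 arrays 12 were higher, against 5.41% of all genes, and the median was 0.22. Ezr, or ezrin, which ties the apical membrane to actin, measured 7.20 ± 0.63 in YFP-positive and 4.79 ± 0.17 in YFP-negative arrays (SD, n = 3 each). The difference was 2.41 (SE 0.42, adjusted p = 0.196, limma) in the 6 arrays and 2.19 (SE 0.31, adjusted p = 0.00339, limma) in the 5. It was positive in all 24 alternatives and passed in 7, including a fit with 1 YFP-positive array. These means come from the brighter of 2 probe sets, where all 3 positive arrays were above the negative ones. The dimmer set had normalized values of 4.87, 5.10 and 6.18 in positive replicates 1, 2 and 3. In negative replicates 1, 2 and 3 it had 5.03, 4.60 and 4.78, so the groups overlapped. With the mean of the 2 sets Ezr differed by 1.5 in the 6 arrays (adjusted p = 0.676, limma). Mal2, a membrane protein needed for transcytosis to the apical surface, differed by 1.14 (SE 0.26, adjusted p = 0.497, limma) and 1.08 (SE 0.20, adjusted p = 0.0225, limma), with passes in 5 of 24 alternatives. Mal2 lost its call in the 5 arrays when negative replicate 1, 2 or 3 was left out (limma adjusted p of 0.078, 0.0845 and 0.072), and Ezr did not. With positive replicate 1 as the only YFP-positive array, assumed to vary like the negative ones, Ezr differed by 2.03 and Mal2 by 0.91 and neither passed (limma adjusted p of 0.0784 and 0.284).

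The apical and recycling trafficking list had 15 of 21 tested genes with a positive difference and a median of 0.20 in the 6 arrays, and 13 of 22 and 0.27 in the 5. Stx3, the syntaxin of apical exocytosis, differed by 2.09 (SE 0.54, adjusted p = 0.628, limma) and by 1.91 in the 5 arrays (SE 0.46, adjusted p = 0.0963, limma). That value comes from the brightest of 4 probe sets. It varied within the YFP-positive group, with normalized values of 5.69, 7.76 and 7.54 in positive replicates 1, 2 and 3, against 4.84 to 4.95 in the negative arrays. The other sets did not share it. Of these, 1 had 4.27, 4.17 and 4.19, against 4.34, 4.20 and 4.23 in the negative replicates. Another had 4.25, 4.66 and 4.14, against 4.23, 4.24 and 4.01. The last was high only on positive replicate 3, at 6.14. Rab10, Rab8b and Rab8a, GTPases of exocytosis in many cell types, differed by -1.04 (SE 0.52), -0.84 (SE 0.52) and -0.38 (SE 0.34) in the 6 arrays. Without positive replicate 3 these differences shrank to -0.51, -0.28 and -0.25. In the 6 and 5 arrays all 4 genes, Stx3 and these GTPases, missed the threshold.

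The polarity complexes were evenly split, with 10 of 20 tested genes positive, a median of -0.01 and none past the threshold, and 11 of 20 and 0.0 in the 5 arrays. Patj, the Crumbs complex scaffold, led at 1.22 (SE 0.42, adjusted p = 0.725, limma), with 0.99 in the 5 arrays, and its normalized values were 5.12, 6.21 and 6.57 in positive replicates 1, 2 and 3, against 4.69 to 4.8 in the negative arrays. Mark2, a kinase of the basolateral side, differed by 0.57 (SE 0.51), a value that rested on positive replicate 3 and was 0.01 in the 5 arrays from another probe set. Dlg1 and Dlg5, scaffolds of the basolateral Scribble group, differed by -0.83 (SE 0.62) and -0.72 (SE 0.42), and the GTPase Cdc42 by -0.64 (SE 0.40). In the 5 arrays Dlg1 differed by -0.04, Dlg5 by -0.55 and Cdc42 by -0.21, so positive replicate 3 carried most of the values of Dlg1 and Cdc42.

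Of the 7 other AP-1 subunits 3 had a positive difference, the median was -0.14 and none passed. In the 5 arrays 4 of 7 were positive and the median was 0.01. Ap1s3, a small subunit, differed by 1.07 (SE 0.42) and Ap1g1, the large gamma subunit, by -1.08 (SE 0.46), while Ap1m1, Ap1b1, Ap1s2 and Ap1g2 differed by -0.62, -0.38, 0.32 and 0.26. In the 5 arrays Ap1s3 differed by 1.35, Ap1g1 by -0.79, Ap1g2 by 0.23, Ap1b1 by 0.01 and Ap1s2, from another probe set, by -0.65. The values of Ap1g1 come from the brightest of its 5 probe sets. A dimmer set, with the suffix _s, had normalized values of 5.48, 6.31 and 4.12 in positive replicates 1, 2 and 3. It had 5.39, 5.16 and 5.69 in the negative replicates, so only positive replicate 3 lay below every negative array. All 5 genes of tricellular junctions had a positive difference, with a median of 0.54 and none past the threshold, and so had all 4 that were tested in the 5 arrays, with a median of 0.63. Marveld2, the tricellulin that Lsr recruits, differed by 1.14 (SE 0.40, adjusted p = 0.725, limma) and by 1.51 (SE 0.34, adjusted p = 0.0651, limma) in the 5 arrays.

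The summed signals of the 7 genes and of the epithelial markers were both higher in each positive array than in any negative array. The summed normalized signal of the 7 was 69.7, 140 and 116 in positive replicates 1, 2 and 3, against 24.6, 34.4 and 45.4 in the negative replicates. The sum of 10 epithelial markers, among them Epcam, Cdh1 and Krt8, was 961, 2394 and 2114 in positive replicates 1, 2 and 3, against 125, 111 and 71.5 in the negative replicates. Positive replicate 1 was the lowest of its group in both sums, while among the negative arrays the sums ran in opposite order. It also held mesenchymal markers at 2853, against 315 and 474 in positive replicates 2 and 3 and 2516 to 3410 in the negative arrays, with all 10 markers tested. Of the epithelial markers 10 of 10 had a positive difference, with a median of 2.28, and all 10 passed in the 5 arrays, where 1 of the 7 polarity and trafficking genes did. Erythroid markers, 6 of 7 tested, summed to 627 to 1501 in YFP-positive and 3128 to 6017 in YFP-negative arrays. Leukocyte markers, 4 of 6 tested, summed to 54.8 to 131 in YFP-positive and 8.7 to 27.3 in YFP-negative arrays. Endothelial markers, 4 of 5 tested, summed to 12.1 to 35.5 in YFP-positive and 8.4 to 21.5 in YFP-negative arrays. Neural markers, 3 of 5 tested, summed to 7.9 to 29.3 in YFP-positive and 6.0 to 13.1 in YFP-negative arrays. The part of these other cells in the results was not tested.

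**Figure D4:**
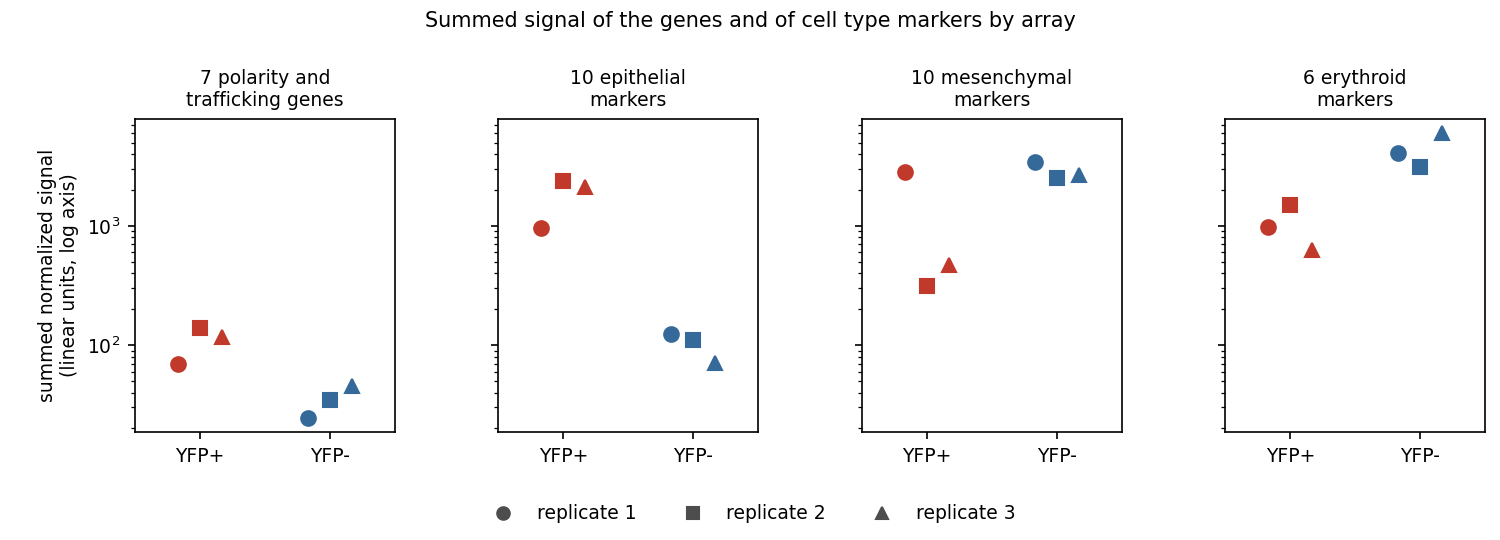
Summed quantile-normalized signal (linear units, log axis) per array of the 7 polarity and trafficking genes and of epithelial, mesenchymal and erythroid markers, YFP-positive at left (red) and YFP-negative at right (blue). In positive replicate 1 the mesenchymal sum was 2853, within the range of the negative arrays, and the sum of the 7 genes was 69.7, the lowest of its group.

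Genes whose signal followed the mean of the 7 over the 6 arrays were found by Pearson's correlation, as a description over 6 arrays that share groups and signal depth. The mean was 4.68, 5.14 and 4.88 in positive replicates 1, 2 and 3, against 4.27, 4.36 and 4.47 in the negative replicates. Among other tested genes that spanned at least 1 log2 unit, the 8 most alike were Cdc42se1 (r = 0.997), a small Cdc42 effector, Slc9a3r1 (r = 0.989), a scaffold that binds ezrin under the apical membrane, Abhd14a (r = 0.988), Bex4 (r = 0.986), the tight junction claudin Cldn4 (r = 0.986), the mannosidase Man2c1 (r = 0.984), Clca1 (r = 0.980) and Afap1l1 (r = 0.979). They were chosen for following a mean that separates the groups, so a positive difference was fixed by the choice and no test is given. Their differences in the 6 arrays ran from 0.74 for Cdc42se1 to 1.77 for Cldn4 and Clca1.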

How the data were processed

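RNA of trypsin-dissociated, sorted cells was labelled with an Affymetrix IVT kit, per the labels' protocols, and measured on arrays of 45101 probe sets. The authors deposited 1 intensity per probe set and array, read as linear because values were never negative and spanned several orders of magnitude. The submitters' processing notes give GCOS for 1 sample. How probes were summarized or scaled is not given in the sources used here.

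From the deposited intensity values 64 control probe sets were set aside. The other 45037 were quantile normalized and transformed to log2(signal + 16). Gene identifiers were matched to RefSeq (GRCm38.p6) for current symbols, for 34754 of the probe sets with 1 gene. Of the probe sets 34945 had 1 gene, 932 several and 9160 none here. The brightest probe set of each of 18193 genes was kept, and genes whose set lay above the 30th percentile of mean signal over all 34945 such probe sets were tested, 14071 in the 6 arrays and 13960 in the 5, by limma's moderated linear model with a trend on intensity (limma 3.58.1, R 4.3.3) and Benjamini-Hochberg adjustment at 0.05. No block was fitted in the main comparison. Background was the highest signal among 27 unspiked bacterial controls. Fold bounds replaced each negative value by the background of its array, on the normalized scale, where that was higher. The steps were tested on simulated data. There a true difference of 1 log2 unit passed for 16.8% of changed genes in the 6 arrays and 77.4% in the 5. The simulated noise had the same spread for all genes of an array, so recovery in the real data can differ. Precision is limited by the number of arrays.

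Named genes were the 7, their paralogues, from each pathway list the genes past the threshold and the 3 highest and 3 lowest differences, and the 8 most alike in pattern, with Shh and Krt8 as checks of the sort. Members, lists and rules were chosen with earlier results of these data known, and so was the comparison without positive replicate 3. Alternatives are given in the closing section.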

Additional observations from a re-analysis of the deposited data

How the results depend on the processing

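On the negative arrays 5, 2 and 5 of the 13 probe sets were above background, so for the others the signal there is only a bound. Of 1043 differences of 44 named genes recomputed under 24 alternatives, 8 of them added after seeing the data, 908 kept their direction and side of the threshold, 44 gained a call, 16 lost one and 75 changed sign. In the 6 arrays, 2 genes were called higher and 0 lower (limma), against 6 and 1 with a pseudocount of 1, 0 higher with a pseudocount of 64, on the values as deposited or with the mean of the probe sets of a gene, 33 higher with median centring, 5 and 2 with every named probe set and no filter, 255 and 225 with array weights, and 1 lower without the intensity trend. With positive replicate 3 also left out, the counts were 15 and 3 with every probe set, 0 higher on the values as deposited, and 62 and 1 with median centring. Leaving out 1 array, or positive replicate 3 and 1 more, gave (some with 1 YFP-positive array, assumed to vary like the others) 0 to 226 higher and 0 to 81 lower, 0 to 2 of the 7 genes and 0 to 8 of the pathway genes. Array weights called 2 of the 7 and 6 pathway genes. Median centring called 1 pathway gene in the 6 arrays and 1 in the 5, and every probe set in the 5 arrays called 1. The causes were not tested.

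Pool size as a replicate block gave 2 genes higher and 0 lower, with 0 of the 7 genes called. Deviations of arrays of equal pool size correlated at 0.127, 0.033 and 0.109. Those of replicates 1 and 3 were the highest of all positive and negative pairs, while positive replicate 2 correlated about as well with negative replicate 1 (0.037). The titles give positive and negative arrays of equal pool size consecutive numbers. These points do not settle whether the arrays are pairs, and the main comparison left them unpaired. The labels do not say that arrays of equal pool size share a litter. Between them the differences of Rab25 were 0.74, 0.91 and 1.27 for pools of 3, 5 and 2, and those of Llgl2, Pard6b and Lsr were also positive in all 3, while Ap1m2, Crb3 and Myo5b had at least 1 negative value.

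The following differences changed sign. Unless every probe set or their mean was used, the brightest set of a gene was chosen anew in each fit. Some values below therefore come from another probe set than in the main comparison. The ranges with arrays left out mix probe sets in the same way. On the values as deposited they were -0.09 for Lsr, -0.14 for Crb3, -0.08 for Myo5b, -0.75 for Rab11a, -0.84 for Rab11b, -0.21 for Ildr2, -0.20 for Crb1, -0.91 for Llgl1, -1.37 for Pard6g, -0.47 for Mark2, -0.07 for Ap1g2, -1.07 for Ap1s2, -0.16 for Cdc42se1, -0.21 for Abhd14a and -0.10 for Bex4. With median centring they were -0.55 for Rab11a, -0.65 for Rab11b, -0.02 for Ildr2, -0.01 for Crb1, -0.72 for Llgl1, -1.18 for Pard6g, -0.28 for Mark2, -0.87 for Ap1s2 and -0.02 for Abhd14a. A pseudocount of 1 gave -0.20 for Myo5b and -0.29 for Mark2. The mean of the probe sets gave -0.07 for Rab11a, 0.14 for Dlg5 and -0.18 for Ap1s2, and array weights -0.06 for Ildr2, -0.08 for Crb1 and 0.15 for Ap1b1. Without positive replicate 3, the values as deposited gave -0.04 for Rab11a, -0.19 for Rab11b, -0.04 for Ildr2, -0.16 for Crb1, -0.0 for Llgl1, -0.34 for Pard6g, -0.29 for Mark2 and -0.92 for Ap1s2. Median centring of those 5 arrays gave -0.08 for Rab11b, -0.06 for Crb1, -0.24 for Pard6g, -0.18 for Mark2 and -0.81 for Ap1s2, and every probe set without filter -0.11 for Ildr2, -0.14 for Mark2, -0.07 for Ap1s2 and 0.01 for Ap1b1. With 1 or 2 arrays left out the differences ran from -0.19 to 0.43 for Crb3, -0.04 to 0.68 for Myo5b, -0.05 to 1.01 for Rab11a, -0.07 to 0.80 for Rab11b, -1.0 to 0.14 for Ap1m1, -0.13 to 0.30 for Crb1, -0.29 to 0.01 for Myo5a, -0.14 to 0.99 for Mark2, -1.32 to 0.08 for Dlg1, -1.02 to 0.68 for Ap1s2, -1.46 to 0.48 for Ap1g1 and -0.63 to 0.26 for Ap1b1.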
